A study of Mus musculus with 22 samples.

Results

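The serine synthesis and folate one-carbon enzymes measured here were Phgdh, Psat1, Psph, Shmt1, Shmt2, Mthfd1, Mthfd2, Mthfd1l, Aldh1l1 and Aldh1l2, chosen as the rows of the count table whose symbol equals one of these names. They are 10 of the 55573 genes counted, and all 10 were tested, as were the 14062 genes that averaged 10 or more reads per library. Liver mRNA of C57BL/6 mice was sequenced in 22 libraries, each taken as 1 mouse. Cre mice carried wild-type Flcn together with Albumin-Cre, and 6 were fed chow and 5 the methionine/choline deficient (MCD) diet. Liver-Flcn-/- mice, labelled FLCN KO, were homozygous for floxed Flcn and carried the same Albumin-Cre transgene, and 5 were fed chow and 6 the MCD diet. Albumin-Cre is driven by a promoter known for its activity in hepatocytes, and Flcn was not measured by cell type. Diets began at 6 weeks of age and lasted 6 weeks. The chow was a purified diet with 10 kcal percent fat from another maker than the MCD diet, so the lack of methionine and choline cannot be told apart from other differences between the diets.

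Counted reads ranged from 15276157 to 19417246 per library in Cre mice on chow, from 18201287 to 21144388 in Cre mice on MCD, from 13751347 to 19645473 in FLCN KO mice on chow and from 16616132 to 20706657 in FLCN KO mice on MCD. Levels are CPM, read counts divided by edgeR's TMM-scaled library size. The targeted gene came first. Flcn had a lowest, median and highest level of 26.1, 31.8 and 40.2 CPM in Cre mice on chow, and levels of 24.2, 20.0, 16.7, 19.4 and 21.8 CPM in FLCN KO mice on chow. On MCD its levels were 31.8, 18.2, 39.9, 32.5 and 23.6 CPM in Cre mice and 17.6, 26.6 and 32.6 CPM (lowest, median, highest) in FLCN KO mice. Flcn was thus lower in all FLCN KO livers than in any Cre liver on chow (log2 fold change -0.63, SE 0.17, adjusted p = 0.025 by edgeR's quasi-likelihood test), whereas on MCD the groups overlapped (-0.16, SE 0.17, adjusted p = 0.57). These counts cover the whole gene and all cells of the liver, not the deleted part in hepatocytes alone, so they do not test the deletion.

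Some libraries stood apart from their groups. Xist and Y-linked counts put 12 mice as female and 10 as male, with 3 female mice in each group and 3, 2, 2 and 3 male mice in Cre chow, Cre MCD, FLCN KO chow and FLCN KO MCD. The 5 chow libraries that the study's mapping statistics list with a low share of uniquely mapped reads (Cre chow 1, 5 and 6, FLCN KO chow 1 and 3) were all 5 male chow libraries, so sex and mapping cannot be told apart on chow. Y-linked reads reached 27.8 CPM in the female library Cre MCD 1 and 26.8 CPM in the female library FLCN KO chow 2, against 136 to 236 CPM in male mice. They were at 10.9, 11.8 and 12.1 CPM in the female libraries Cre chow 2, FLCN KO chow 4 and FLCN KO MCD 3. The other female libraries had at most 3.15 CPM. Library Cre MCD 3 held 2485 CPM of 8 skeletal muscle markers, with Myh1 the most abundant, against 0.82 to 121 CPM in the other Cre MCD libraries. The hepatocyte markers Alb, Apoa1, Ttr, Cps1, Tat, Serpina1a, Fgb and Cyp2e1 were above 0 in all 22 livers, with Alb the most abundant.

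Serine is made from the glycolytic intermediate 3-phosphoglycerate by PHGDH, PSAT1 and PSPH in sequence. Serine hydroxymethyltransferases, SHMT1 in the cytosol and SHMT2 in mitochondria, then move a carbon from serine to tetrahydrofolate and leave glycine. MTHFD2 and MTHFD1L carry that carbon to formate in mitochondria, MTHFD1 interconverts the folate forms in the cytosol, and ALDH1L1 (cytosol) and ALDH1L2 (mitochondria) release it as carbon dioxide while making NADPH. Adult liver is known for high ALDH1L1 and for using folate carbon in methionine and glycine metabolism, and the serine synthesis genes and MTHFD2 are known targets of the stress-activated transcription factor ATF4.

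Promoter sequence is shown for Phgdh and Psat1, the serine synthesis genes with the steepest rise in Cre mice on MCD, since Phgdh alone among the members held one of the 4 motifs searched. RefSeq windows of 250 bases before the start were at hand for 9 of the 10 members, and Aldh1l2 was not among them. In the Phgdh stretch, capitals mark the antioxidant response element core TGACNNNGC, read on the strand opposite to the gene, 53 to 45 bases before the start. The stretches lie on the minus strand of GRCm38.p6 at chr3:98339991-98340219 for Phgdh, 22 to 250 bases before its start and outside its annotated exons, and at chr19:15925060-15925309 for Psat1, the 250 bases before one of its RefSeq starts.
Phgdh: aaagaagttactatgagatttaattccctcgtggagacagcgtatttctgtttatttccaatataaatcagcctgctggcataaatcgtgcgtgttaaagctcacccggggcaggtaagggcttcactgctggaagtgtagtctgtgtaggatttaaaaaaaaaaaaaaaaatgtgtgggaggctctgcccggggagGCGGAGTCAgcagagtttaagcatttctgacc
Psat1: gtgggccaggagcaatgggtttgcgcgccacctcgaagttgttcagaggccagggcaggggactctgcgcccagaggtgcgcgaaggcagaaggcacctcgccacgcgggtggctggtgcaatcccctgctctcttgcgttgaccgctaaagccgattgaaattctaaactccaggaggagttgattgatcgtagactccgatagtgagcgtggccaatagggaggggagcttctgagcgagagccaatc
That core was in 1 of 10 member windows and in 10.2% of all 32851 windows of this length. The C/EBP-ATF response element TGATGNAAN, the E-box CACGTG and the longer TCACGTGA that contains it, the core of the element read by TFEB and TFE3, were in 0 of 10 member windows and in 3.44, 6.02 and 0.785% of all windows, counting both strands. A match is no evidence of binding, and a missing match says only that these letters are not in this window.

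Between genes, levels were compared per kilobase of exon. In Cre mice on chow, Aldh1l1 stood far above the rest at 485 ± 86.6 CPM per kb (SD, n = 6), followed by Shmt2 (81.1 ± 8.91), Shmt1 (76.5 ± 14) and Mthfd1 (73.4 ± 10). The means of these 3 lay within 1 SD of each other. Psph came next at 1.63 ± 0.37 CPM per kb, then Mthfd2 at 0.519 ± 0.269 and Psat1 at 0.205 ± 0.0898. The lowest were Mthfd1l (0.166 ± 0.101), Aldh1l2 (0.0484 ± 0.0114) and Phgdh (0.0373 ± 0.0338). Of these, Aldh1l2 and Phgdh lay within the larger of their SDs, while Mthfd1l lay above both by more than either SD. On MCD the first 4 genes of the order were still Aldh1l1, Shmt2, Shmt1 and Mthfd1 in Cre mice, while Psat1 moved from rank 7 to rank 5 with 12.7 ± 8.49 CPM per kb (n = 5). In FLCN KO mice Psat1 made the same move in rank, from 0.407 ± 0.204 CPM per kb on chow (n = 5) to 9.54 ± 2.75 on MCD (n = 6).

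The first comparison asked how the diet changed these enzymes in Cre livers. Of the 10 members, 6 rose and 4 fell on MCD at an adjusted p under 0.05, where 57.5% of all tested genes passed, 29.3% higher and 28.2% lower. Of all calls 50.9% were higher, or 81.9% when libraries were scaled to their totals without TMM. Under that scaling 9 of the 10 members and 68.6% of tested genes passed. The members that rose were the serine synthesis genes Phgdh, Psat1 and Psph and the mitochondrial enzymes Mthfd2, Mthfd1l and Aldh1l2. Those that fell were Shmt1, Shmt2, Mthfd1 and Aldh1l1, all cytosolic but Shmt2. The groups did not overlap for 5 of the 6 that rose (all but Psph) and for all 4 that fell, against 15.6% and 16.9% of all tested genes that did not overlap upwards and downwards. Phgdh and Aldh1l2 averaged under 10 reads per chow library and entered the tests only through their MCD levels, so their part in these counts is fixed in direction by the filter. With no filter both passed as well for the diet in Cre mice, but neither passed for the interaction of genotype and diet given below.

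**Figure D1:**
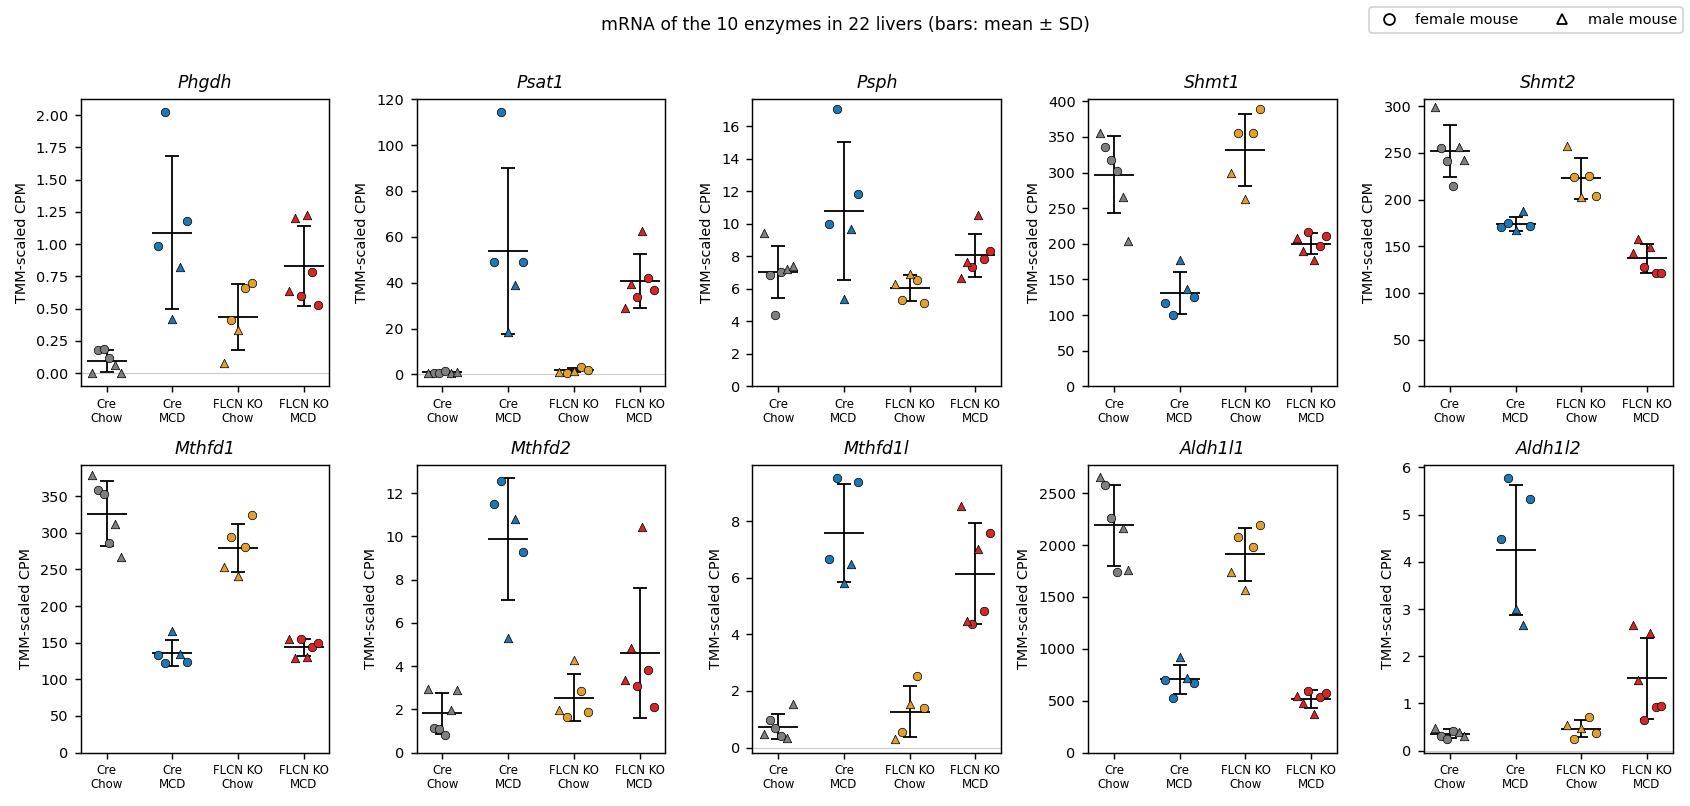
TMM-scaled CPM of the 10 enzymes in each of the 22 livers (vertical axes from 0, linear, 1 panel per gene), by genotype and diet, with circles for female and triangles for male mice and black bars for the mean ± SD of the group. Psat1 lies between 18.3 and 114 CPM in Cre mice on MCD and at or below 1.58 CPM in Cre mice on chow, while Aldh1l1 falls from a mean of 2190 to 706 CPM.

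Psat1, the aminotransferase of serine synthesis, changed most. Its lowest, median and highest levels in Cre mice on chow were 0.486, 0.762 and 1.58 CPM, and its levels in the 5 Cre mice on MCD were 48.9, 114, 18.3, 38.9 and 48.8 CPM. Every MCD liver was more than 10 CPM above every chow liver, with the highest value in Cre MCD 2 and the lowest in Cre MCD 3, the library with muscle RNA. Psat1 thus rose by 5.93 on the log2 scale (SE 0.43, adjusted p = 4.3e-10), and by 6.15 without Cre MCD 3. Phgdh, which commits 3-phosphoglycerate to serine, was barely detected on chow, with 0 to 3 reads in each Cre library. Its level in Cre mice on MCD was 0.988, 2.02, 0.422, 0.825 and 1.18 CPM, all above the highest chow value of 0.185 CPM. Summed over libraries, 9 reads on chow and 120 on MCD gave a depth-scaled ratio of 10.9 with a 95% exact interval of 5.55 to 24.4 that covers counting error only, and the fitted log2 fold change was 3.37 (SE 0.55, adjusted p = 2.3e-05). Psph, the phosphatase of the last step, moved least of the 3 serine synthesis genes: 4.38, 7.15 and 9.41 CPM (lowest, median, highest) on chow and 10.0, 17.1, 5.39, 9.65 and 11.8 CPM on MCD. These groups overlapped, the log2 fold change of 0.62 (SE 0.21, adjusted p = 0.016) fell to 0.39 (adjusted p = 0.095) without Cre MCD 2, and it was -0.07 (adjusted p = 0.87) among male mice alone.

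The serine hydroxymethyltransferases fell in Cre mice on MCD. Shmt1, the cytosolic enzyme, lay between 204 and 355 CPM on chow (median 310) and at 117, 100, 178, 136 and 126 CPM on MCD, without overlap and with Cre MCD 3 highest. Its log2 fold change was -1.18 (SE 0.15, adjusted p = 7.0e-07). Mitochondrial Shmt2 lay between 215 and 299 CPM on chow (median 249) and at 171, 175, 167, 188 and 172 CPM on MCD, a narrow range below every chow liver. Its change of -0.53 (SE 0.09, adjusted p = 4.4e-05) was the smallest of the 4 that fell. It was -0.11 (adjusted p = 0.34) when libraries were scaled to their totals.

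Mthfd1 fell and its mitochondrial counterparts rose. Mthfd1 lay between 267 and 380 CPM on chow (median 332) and at 133, 122, 166, 135 and 123 CPM on MCD (log2 fold change -1.26, SE 0.11, adjusted p = 4.6e-09). Mthfd2 lay between 0.791 and 2.92 CPM on chow (median 1.56) and at 11.5, 12.5, 5.3, 10.8 and 9.27 CPM on MCD, higher in every MCD liver (2.47, SE 0.39, adjusted p = 1.8e-05). On chow the 3 highest Mthfd2 values, 1.96 to 2.92 CPM, were those of the 3 male Cre mice. Mthfd1l, which makes formate in mitochondria, lay between 0.338 and 1.53 CPM on chow (median 0.577) and at 6.67, 9.52, 5.81, 6.5 and 9.38 CPM on MCD (3.37, SE 0.39, adjusted p = 3.4e-07). Each of these genes separated the diets completely.

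The formyltetrahydrofolate dehydrogenases moved in opposite directions. Aldh1l1 lay between 1740 and 2660 CPM on chow (median 2210) and at 698, 529, 920, 716 and 670 CPM on MCD, a mean 3.11-fold lower (log2 fold change -1.64, SE 0.15, adjusted p = 1.9e-08). Aldh1l2 lay between 0.247 and 0.474 CPM on chow (median 0.364) and at 4.49, 5.77, 3.00, 2.67 and 5.33 CPM on MCD, 11.6-fold higher (3.53, SE 0.37, adjusted p = 6.9e-08). On MCD the 3 female Cre mice had the 3 highest Aldh1l2 levels.

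In FLCN KO mice, 3 members rose on MCD (Psat1, Mthfd1l and Aldh1l2), 4 fell (Shmt1, Shmt2, Mthfd1 and Aldh1l1) and 3 did not pass (Phgdh, Psph and Mthfd2), where 45% of all tested genes passed, 22.5% in each direction. Of all calls 50% were higher, or 77% when libraries were scaled to their totals, under which all 10 members and 53.6% of tested genes passed. The groups did not overlap upwards for Psat1 and Mthfd1l, against 14.4% of tested genes, or downwards for all 4 that fell, against 14.8%. Aldh1l2, with 38 reads summed over the 5 chow libraries, entered the tests only through its MCD levels. Its part in the count of members that rose is thus fixed in direction by the filter here too, and with no filter it passed as well. Psat1 rose from 1.25, 0.772, 1.68, 3.09 and 1.89 CPM on chow to 29.0, 38.3 and 62.6 CPM (lowest, median, highest) on MCD, a log2 fold change of 4.52 (SE 0.42, adjusted p = 2.9e-08). Mthfd1l rose from 0.311, 0.535, 1.54, 2.54 and 1.40 CPM to 4.38, 5.93 and 8.52 CPM (2.25, SE 0.38, adjusted p = 6.3e-05). Aldh1l2 went from 0.545, 0.238, 0.47, 0.717 and 0.377 CPM to 0.649, 1.23 and 2.66 CPM (1.70, SE 0.37, adjusted p = 0.00077), and here the lowest MCD liver lay below the highest chow liver. The Aldh1l2 value was 0.91 among female mice alone (adjusted p = 0.062) and 2.10 among male mice alone (adjusted p = 0.0038).

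The members that fell did so in every FLCN KO liver on MCD. Aldh1l1 fell from 1560 to 2190 CPM on chow to 368 to 595 CPM on MCD (-1.89, SE 0.15, adjusted p = 3.4e-09) and Mthfd1 from 241 to 324 CPM to 130 to 155 CPM (-0.96, SE 0.11, adjusted p = 3.0e-07). Shmt1 fell by 0.73 on the log2 scale (SE 0.14, adjusted p = 0.00023, but 0.088 among male mice alone) and Shmt2 by 0.71 (SE 0.09, adjusted p = 2.1e-06). Among those that did not pass, Phgdh was at 0.0778, 0.416, 0.336, 0.662 and 0.701 CPM on chow and 0.525, 0.711 and 1.23 CPM (lowest, median, highest) on MCD (0.87, SE 0.45, adjusted p = 0.12). The Phgdh value was 0.09 among female mice alone (adjusted p = 0.87) and 2.21 among male mice alone (adjusted p = 0.044). Mthfd2 had a log2 fold change of 0.87 (SE 0.39, adjusted p = 0.075). It was 0.44 (adjusted p = 0.31) without FLCN KO MCD 4, 1.11 (adjusted p = 0.041) without the 5 chow libraries of low unique mapping, and passed with DESeq2 (0.87, adjusted p = 0.047) and without FLCN KO chow 3 or FLCN KO MCD 6. Psph had a value of 0.42 (SE 0.21, adjusted p = 0.12).

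**Figure D2:**
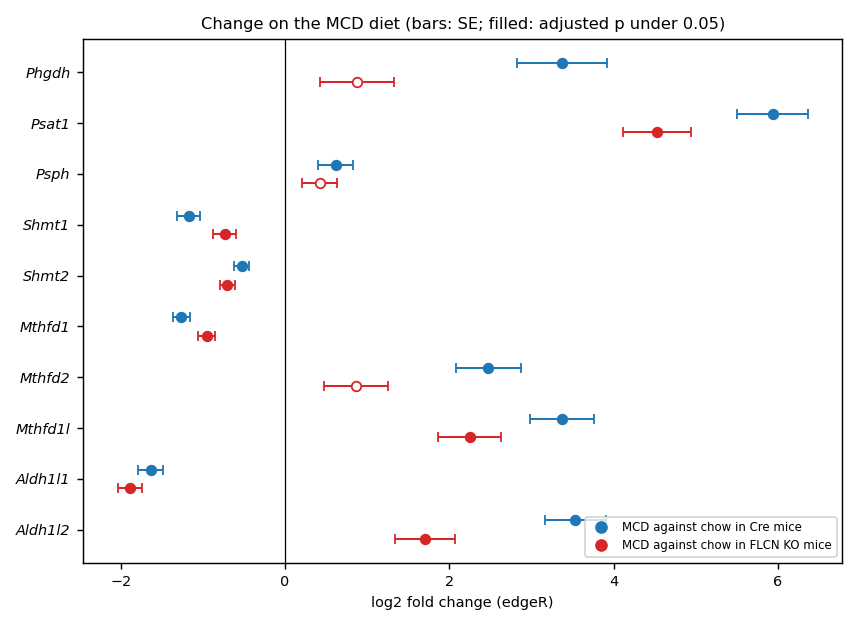
Log2 fold change on the MCD diet against chow (horizontal axis, edgeR) of each enzyme in Cre mice (blue) and FLCN KO mice (red), with bars for the standard error and filled points where the adjusted p was under 0.05. Psat1 is farthest to the right in both genotypes (5.93 and 4.52), and Shmt1, Shmt2, Mthfd1 and Aldh1l1 lie left of 0 in both.

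Whether the diet response differed between genotypes was tested as the interaction. It passed for 2 of 10 members, both with negative values, where 8.83% of all tested genes passed, 3.29% in the positive and 5.54% in the negative direction. They were Phgdh (-2.50 on the log2 scale, SE 0.73, adjusted p = 0.036) and Aldh1l2 (-1.83, SE 0.53, adjusted p = 0.035). Both entered the tests only through their MCD levels. The positive share of calls was 37.3%, or 12.5% with scaling to totals. Mthfd2 had an interaction of -1.61 (SE 0.55, adjusted p = 0.069), which passed with DESeq2 (-1.61, adjusted p = 0.029) and with sex as a covariate (-1.93, adjusted p = 0.020). Psat1 had a value of -1.41 (SE 0.58, adjusted p = 0.13) and Mthfd1l one of -1.12 (SE 0.54, adjusted p = 0.20). For the members that fell the values were 0.44 (Shmt1), 0.31 (Mthfd1), -0.18 (Shmt2) and -0.26 (Aldh1l1), with none past the threshold. The calls were not firm. Neither passed with no filter on low counts, with limma-voom or with the replicate number as a block. In a fit by sex, the Aldh1l2 value was -3.055 in female and -0.684 in male mice, and that of Psat1 was -1.988 and -0.211. The difference between the sexes passed for neither gene in that fit (adjusted p of 0.81 and 0.96 by edgeR's test). The Phgdh call was lost on leaving out any one of Cre chow 1, 5 or 6, Cre MCD 1 or 2, FLCN KO chow 4 or 5, or FLCN KO MCD 1, 3 or 6 (adjusted p up to 0.077), and the Aldh1l2 call on leaving out any one of Cre chow 2 or 3, Cre MCD 1 or 2, FLCN KO chow 1 or 4, or FLCN KO MCD 6 (up to 0.092). Without Cre MCD 3, the library with muscle RNA, 4 members passed, beside 10.1% of all tested genes. Without Cre MCD 1, the female library with the most Y-linked reads, 0 members did, beside 5.82%. Leaving out the 5 chow libraries of low unique mapping left 1, Mthfd2 (-2.16, adjusted p = 0.049), beside 5.54%.

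On chow, 1 of the 10 members passed between genotypes, near the share of all tested genes that passed, 8.62% (5.52% higher and 3.1% lower). The higher share of calls was 64%, or 92.1% with scaling to totals. The groups did not overlap for 0 of 10 members, against 4.01% of tested genes upwards and 2.93% downwards. Phgdh was higher in FLCN KO livers, with 38 reads summed over 5 libraries against 9 over 6 and a depth-scaled ratio of 4.62 (95% exact interval of 2.2 to 10.9, counting error only). The fitted log2 fold change was 2.11 (SE 0.61, adjusted p = 0.032). The groups overlapped, since FLCN KO chow 1 had 0.0778 CPM. This call was lost on leaving out any one of Cre chow 1, 5 or 6 or FLCN KO chow 4 or 5 (adjusted p up to 0.099), and without the 5 libraries of low unique mapping (1.83, adjusted p = 0.12). It was also lost with limma-voom (1.97, adjusted p = 0.086) and with only the 2 groups compared. Among female mice alone the value was 1.83 (adjusted p = 0.054), and among male mice alone 2.81 (adjusted p = 0.34). Psat1 (1.00, SE 0.48, adjusted p = 0.21) and Mthfd1l (0.82, SE 0.42, adjusted p = 0.25) had the next largest values, and the log2 fold changes of the other 7 members lay between -0.23 and 0.51.

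On the MCD diet, 1 member was higher and 4 were lower in FLCN KO than in Cre livers, where 16.6% of all tested genes passed, 8.06% higher and 8.53% lower. The groups did not overlap for Aldh1l2 and Shmt2, both lower, against 3.53% of tested genes, and for 0 members that were higher, against 5.08%. Aldh1l2 had levels of 4.49, 5.77, 3.00, 2.67 and 5.33 CPM in Cre mice and 0.649, 1.23 and 2.66 CPM (lowest, median, highest) in FLCN KO mice, so that the highest FLCN KO liver lay just under the lowest Cre liver. Its log2 fold change was -1.46 (SE 0.31, adjusted p = 0.0026), or 2.76-fold lower. Mthfd2 was at 11.5, 12.5, 5.3, 10.8 and 9.27 CPM in Cre mice and 2.10, 3.58 and 10.4 CPM in FLCN KO mice, 5 of which lay below every Cre liver. The other, FLCN KO MCD 4, had 10.4 CPM. Mthfd2 thus had a fitted log2 difference of -1.10 (SE 0.36, adjusted p = 0.042). Shmt2 fell from 167 to 188 CPM in Cre mice to 121 to 158 CPM in FLCN KO mice (-0.35, SE 0.09, adjusted p = 0.0092).

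The cytosolic members differed in direction. Shmt1 was higher in FLCN KO mice on MCD, at 177, 203 and 217 CPM (lowest, median, highest) against 117, 100, 178, 136 and 126 CPM in Cre mice, where only Cre MCD 3 reached the FLCN KO range (0.61, SE 0.14, adjusted p = 0.0055). Aldh1l1 was lower, at 368, 539 and 595 CPM against 698, 529, 920, 716 and 670 CPM (-0.45, SE 0.15, adjusted p = 0.038). Mthfd1 had a value of 0.08 (SE 0.11, adjusted p = 0.66). In serine synthesis no member passed: the log2 fold changes were -0.38 (Phgdh), -0.41 (Psat1) and -0.42 (Psph), with adjusted p of 0.58, 0.43 and 0.18. Without Cre MCD 2 the values were -0.03, 0.07 and -0.19, and without Cre MCD 3, the library with muscle RNA, -0.59, -0.63 and -0.59, where Psph passed (adjusted p = 0.025). Among female mice alone they were -1.13, -0.92 and -0.73, with Phgdh (adjusted p = 0.042) and Psph (0.035) past the threshold, and among male mice alone they were positive, at 0.71, 0.61 and 0.13 (adjusted p of 0.53, 0.38 and 0.85). Leaving out any one of Cre MCD 1, 3 or 4 or FLCN KO MCD 2, 4 or 5 ended the Aldh1l1 call (adjusted p up to 0.12), and any one of Cre MCD 1, 2, 4 or 5 or FLCN KO MCD 1, 2, 3, 5 or 6 the Mthfd2 call (up to 0.095). The calls for Aldh1l2, Shmt1 and Shmt2 held in all 22 fits that left out 1 library, but not among male mice alone (adjusted p of 0.59, 0.55 and 0.39).

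**Figure D3:**
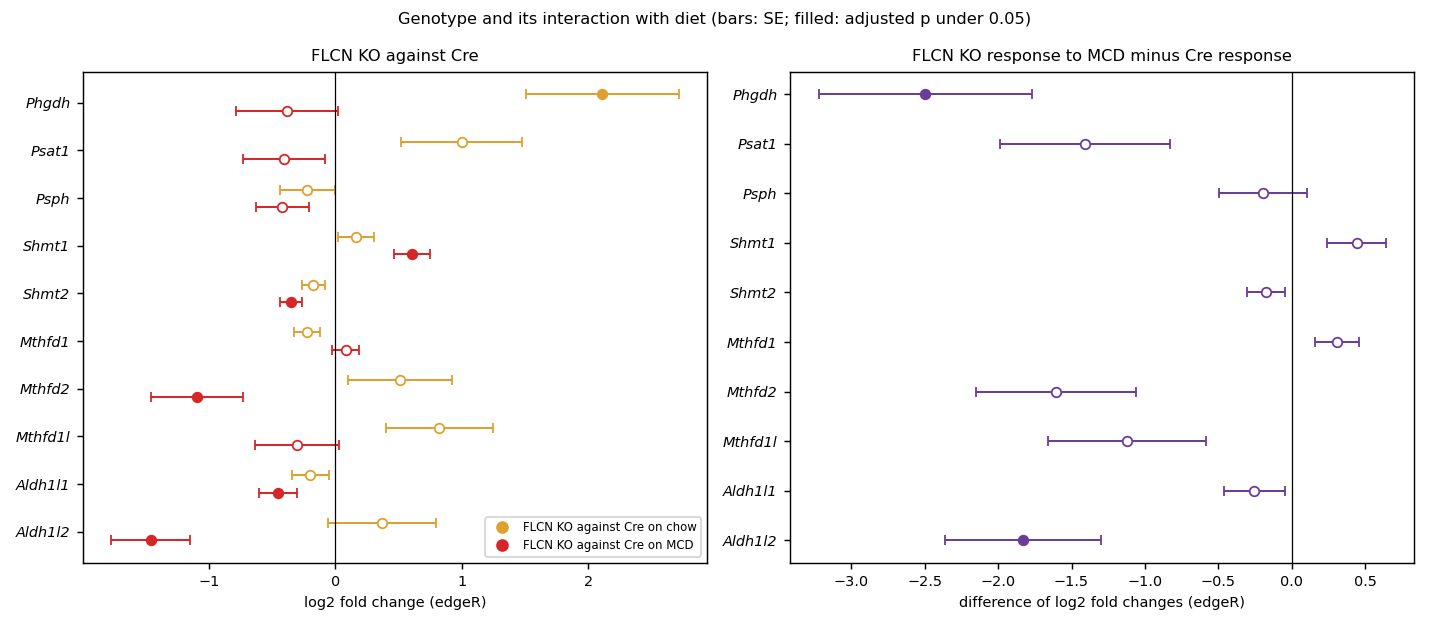
Left, log2 fold change of FLCN KO against Cre livers on chow (orange) and on MCD (red), and right, the interaction, the FLCN KO response to MCD minus the Cre response, for each enzyme, with bars for the standard error and filled points where the adjusted p was under 0.05 (edgeR). Aldh1l2 and Mthfd2 are lower on MCD (-1.46 and -1.10) and Shmt1 is higher (0.61), and the interaction passes for Phgdh and Aldh1l2 only.

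The genotype difference on MCD was also read within each sex, in a fit of the 8 cells of genotype, diet and sex. Aldh1l2 had levels of 4.49, 5.77 and 5.33 CPM in the 3 female Cre mice and 0.649, 0.928 and 0.954 CPM in the 3 female FLCN KO mice, against 3.00 and 2.67 CPM in the 2 male Cre mice and 2.66, 1.51 and 2.49 CPM in the 3 male FLCN KO mice. The female groups lay far apart and the male groups close together. Female mice had a log2 fold change of -2.61 (SE 0.29, adjusted p = 1.6e-05) and male mice one of -0.35 (SE 0.30, adjusted p = 0.52). The difference between the sexes passed for Aldh1l2 (2.25, SE 0.42, adjusted p = 0.030) and for none of the other 9 members, where 0.228% of all tested genes passed. By unadjusted p under 0.05, 7 of the 10 members had such a difference, beside 9.94% of all tested genes. Mthfd2 was at 9.27 to 12.5 CPM in female Cre mice and 2.10 to 3.81 CPM in female FLCN KO mice (-1.89, SE 0.38, adjusted p = 0.0031), and male mice had a value of -0.37 (SE 0.40, adjusted p = 0.63). In this fit 5 members passed in female mice, where 13% of tested genes did, and 1, Aldh1l1 (-0.82, SE 0.20, adjusted p = 0.012), passed in male mice, where 9.86% did. The 2 male Cre mice on MCD were Cre MCD 3 and 4, with 2485 and 121 CPM of muscle markers. Among the female mice on MCD, Cre MCD 1 held 27.8 CPM of Y-linked reads and FLCN KO MCD 3 held 12.1 CPM.

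For the diet, the same fit called 10 members in female and 9 in male Cre mice, where 50.2 and 41.6% of tested genes passed, and 7 and 8 in FLCN KO mice, where 38.1 and 28.7% did. The interaction passed for 3 members in female mice (7.16% of tested genes) and for 0 in male mice (1.38%, and 0 members at an unadjusted p under 0.05, beside 14.5% of tested genes). On chow the genotype changed 0 members in either sex (4.35 and 3.9% of tested genes), with 2 members in each at an unadjusted p under 0.05, beside 17.3 and 17% of tested genes. The difference between sexes passed for 0 members in the diet response of Cre mice (3.19% of tested genes), the diet response of FLCN KO mice (0.676%), the genotype on chow (0.0427%) and the interaction (0%). By unadjusted p under 0.05 it did for 4, 2, 0 and 2 members, beside 20.2, 11.3, 4.54 and 5.32% of tested genes.

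**Figure D4:**
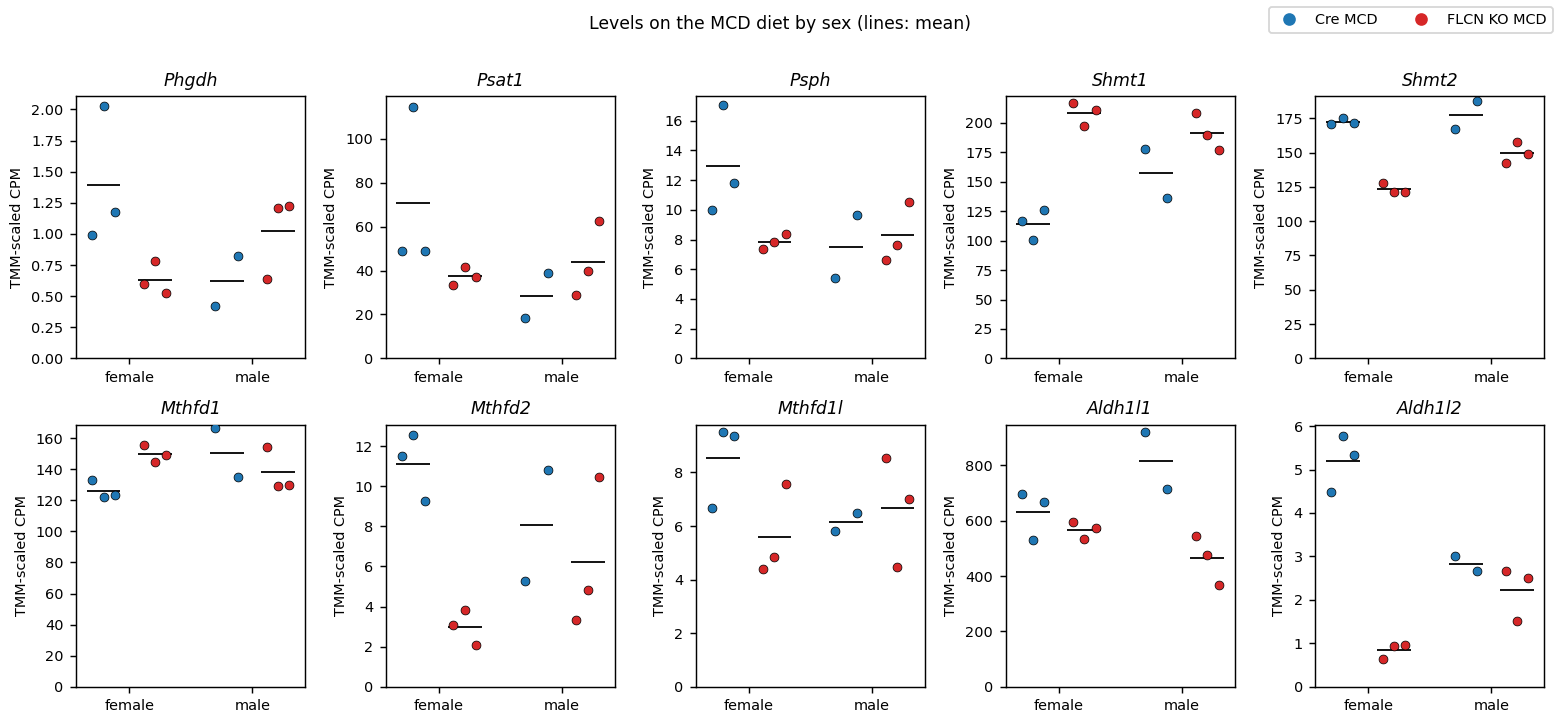
TMM-scaled CPM of the 10 enzymes on the MCD diet (vertical axes from 0, linear) in female and male mice, with Cre mice in blue, FLCN KO mice in red and lines for the means. The female Aldh1l2 means are 5.20 and 0.844 CPM in Cre and FLCN KO mice and the male means 2.83 and 2.22 CPM.

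Other folate enzymes are given from a list of 12, all of them tested, beside all genes with a median log2 fold change of 0.01 for the diet in Cre mice. On MCD in Cre mice 2 rose and 6 fell, with a median of -0.45, beside 29.3% of all tested genes that rose and 28.2% that fell. Fpgs, which adds the glutamate tail that keeps folate in cells, fell by 1.74 on the log2 scale (SE 0.14, adjusted p = 1.7e-09). Ftcd of histidine breakdown fell by 0.79 (SE 0.13, adjusted p = 2.7e-05), while methionine synthase reductase Mtrr rose (0.57, SE 0.17, adjusted p = 0.0064). Thymidylate synthase Tyms had a log2 fold change of 0.29 (SE 0.14, adjusted p = 0.075). In FLCN KO mice on MCD 1 rose and 2 fell (median -0.03), beside 22.5% of all tested genes in each direction: Fpgs fell by 1.23 (SE 0.13, adjusted p = 2.3e-07) and Mtrr rose by 0.66 (SE 0.17, adjusted p = 0.0034). Between genotypes, Ggh, which trims folate tails in lysosomes, was higher in FLCN KO livers on both diets, by 1.28 on chow (SE 0.15, adjusted p = 8.9e-06) and 0.94 on MCD (SE 0.15, adjusted p = 0.00028). It was the 1 of 12 that passed on chow, beside 8.62% of all tested genes. On MCD 3 were higher (Ggh, Mthfs and Mthfsl) and 1, methionine synthase Mtr (-0.35, SE 0.11, adjusted p = 0.039), was lower, beside 8.06 and 8.53% of all tested genes.

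Of the genes that use serine or glycine, 20 tested of 21 listed, 15 fell and 2 rose in Cre mice on MCD (median -0.69), beside 28.2% of all tested genes that fell. In FLCN KO mice 12 fell and 4 rose (median -0.51, against 0 over all genes), beside 22.5% that fell. In Cre mice Pipox, which oxidizes sarcosine, fell by 3.51 (SE 0.20, adjusted p = 1.3e-11) and serine dehydratase Sds by 2.26 (SE 0.27, adjusted p = 3.9e-07). Glycine methyltransferase Gnmt fell by 1.54 (SE 0.15, adjusted p = 4.7e-08) and cystathionine synthase Cbs by 1.26 (SE 0.15, adjusted p = 6.0e-07). The glycine cleavage enzyme Gldc fell by 1.00 (SE 0.20, adjusted p = 0.00018) in Cre mice and had a change of -0.44 (adjusted p = 0.068) in FLCN KO mice. Sptlc2, which joins serine to palmitate, rose by 1.03 in Cre mice (SE 0.10, adjusted p = 4.1e-08). The fall of Sds was smaller in FLCN KO mice, at -0.97 (SE 0.25, adjusted p = 0.0031), with an interaction of 1.29 (SE 0.36, adjusted p = 0.028). Between genotypes on MCD 4 of these genes were higher and 2 lower in FLCN KO mice, beside 8.06 and 8.53% of all tested genes (median 0.18, against -0.01 over all genes). Gnmt was lower on MCD (-0.82, SE 0.15, adjusted p = 0.00072) as on chow (-0.58, SE 0.15, adjusted p = 0.019).

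Of the carriers of folate, serine and glycine, 10 tested of 11 listed, 3 rose and 3 fell in Cre mice on MCD (median -0.14), beside 29.3% of all tested genes that rose and 28.2% that fell. In FLCN KO mice 3 rose and 4 fell (median -0.17), beside 22.5% in each direction. The neutral amino acid carrier Slc1a5 rose by 2.13 (SE 0.20, adjusted p = 1.9e-08) and the reduced folate carrier Slc19a1 by 1.52 (SE 0.20, adjusted p = 2.0e-06) in Cre mice, whereas the folate receptor Folr2 fell by 1.24 (SE 0.26, adjusted p = 0.00031). The mitochondrial serine carrier Sfxn1 had a change of 0.15 (adjusted p = 0.15) in Cre mice and rose by 0.65 (SE 0.09, adjusted p = 4.9e-06) in FLCN KO mice, and the mitochondrial folate carrier Slc25a32 passed in neither (-0.11 and 0.14, adjusted p of 0.61 and 0.56). Slc1a4, which carries serine and alanine, was lower in FLCN KO than in Cre livers on MCD (-2.16, SE 0.35, adjusted p = 0.00025) and had a change of 0.05 (adjusted p = 0.95) on chow. Purine synthesis takes carbon from formyl-tetrahydrofolate, and of its 13 genes 3 rose and 5 fell in Cre mice (median -0.12) and 2 rose and 3 fell in FLCN KO mice (median 0.11), beside 57.5 and 45% of all tested genes that passed. Impdh1 of guanine nucleotide synthesis rose by 2.11 (SE 0.23, adjusted p = 1.5e-07) and Paics fell by 1.32 (SE 0.13, adjusted p = 2.2e-08) in Cre mice.

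Of ATF4 and genes it is known to drive, 25 tested of 26 listed, 19 rose and 0 fell in Cre mice on MCD (median 1.24), beside 29.3% of all tested genes that rose. Of the same 25, 15 rose and 0 fell in FLCN KO mice (median 1.04), beside 22.5% that rose. The cystine carrier Slc7a11 rose by 7.22 (SE 0.83, adjusted p = 2.7e-07), Nupr1 by 5.57 (SE 0.45, adjusted p = 1.8e-09), asparagine synthetase Asns by 5.02 (SE 0.68, adjusted p = 2.6e-06) and Trib3 by 3.88 (SE 0.37, adjusted p = 2.5e-08) in Cre mice. In FLCN KO mice Asns rose by 3.76 (SE 0.69, adjusted p = 0.00016) and Trib3 by 3.66 (SE 0.39, adjusted p = 2.1e-07). Atf4 mRNA itself had a change of 0.39 in Cre mice (SE 0.16, adjusted p = 0.036) and 0.35 in FLCN KO mice (SE 0.16, adjusted p = 0.077). Between genotypes on MCD 6 of the 25 were lower and 2 higher in FLCN KO livers (median -0.38), beside 8.53 and 8.06% of all tested genes. The lower ones were led by Slc7a11 (-1.76, SE 0.49, adjusted p = 0.016), the hormone Fgf21 (-1.59, SE 0.43, adjusted p = 0.013) and Atf3 (-1.58, SE 0.23, adjusted p = 9.6e-05). On chow 3 were higher and 1 lower (median 0.03), beside 5.52 and 3.1% of all tested genes: Nupr1 (3.35, SE 0.43, adjusted p = 2.2e-05), Gdf15 (2.59, SE 0.39, adjusted p = 0.00014) and the mitochondrial carboxykinase Pck2 (1.38, SE 0.33, adjusted p = 0.011) were higher and Cth (-0.68, SE 0.20, adjusted p = 0.036) was lower.

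**Figure D5:**
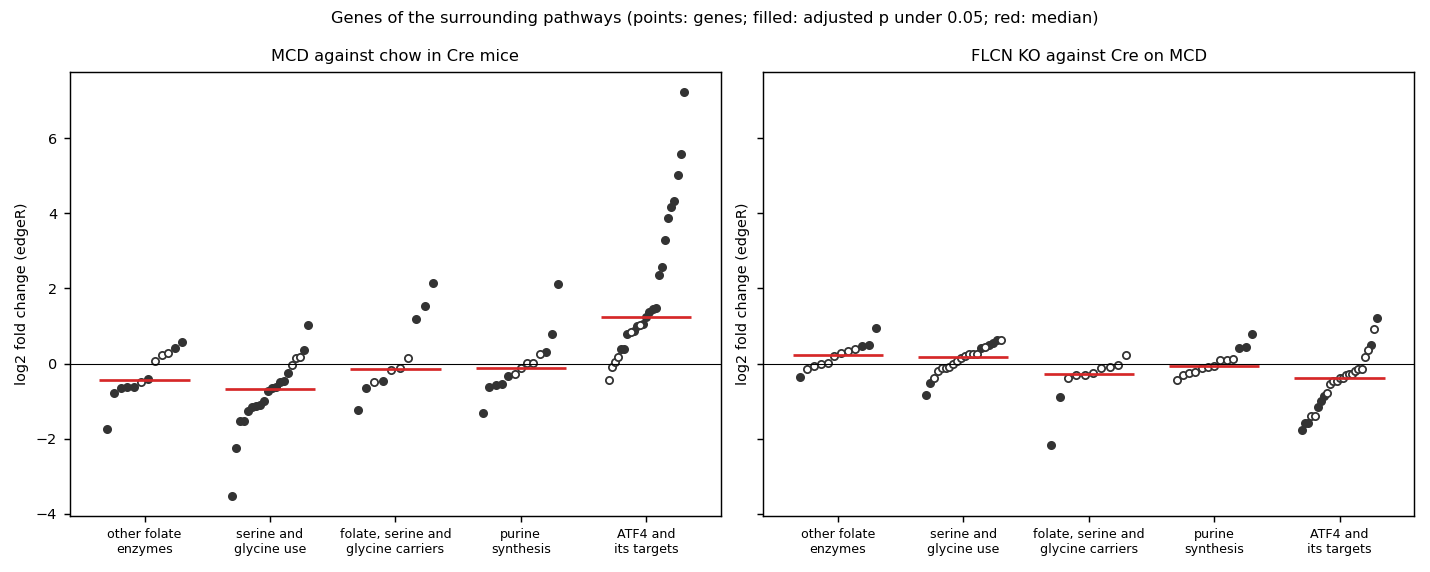
Log2 fold change (vertical axis, edgeR) of every tested gene of 5 surrounding lists, for MCD against chow in Cre mice (left) and FLCN KO against Cre mice on MCD (right), with filled points where the adjusted p was under 0.05 and red lines for the medians. ATF4 and its targets have a median of 1.24 on the left and -0.38 on the right, and genes of serine and glycine use one of -0.69 and 0.18.

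Markers of other cells moved with the diet and the genotype, and their part in these results was not tested. In bulk tissue, fewer cells of a type and less RNA per cell cannot be told apart. The 8 hepatocyte markers summed to 142000 ± 18900 CPM in Cre chow (SD, n = 6), 97400 ± 15100 in Cre MCD (n = 5), 116000 ± 20500 in FLCN KO chow (n = 5) and 76700 ± 8820 in FLCN KO MCD livers (n = 6), and 6 of 8 fell on MCD in Cre mice and 7 of 8 in FLCN KO mice, beside 28.2 and 22.5% of all tested genes. Aldh1l1, Mthfd1, Shmt1 and Shmt2 fell as well. The marker sums are TMM-scaled, and the TMM factors differed by diet. They were 0.816 to 0.889 in Cre chow, 1.06 to 1.20 in Cre MCD, 0.919 to 0.969 in FLCN KO chow and 1.06 to 1.16 in FLCN KO MCD libraries. As shares of total counts, the hepatocyte sums would thus fall less on MCD. The 7 monocyte and macrophage markers, led by Lyz2, summed to means of 88.3, 256, 128 and 155 CPM in the same order of groups. All 7 rose on MCD in Cre mice, beside 29.3% of all tested genes, as did Phgdh, Psat1, Psph, Mthfd2, Mthfd1l and Aldh1l2. On MCD 3 of 7 were lower in FLCN KO than in Cre mice, beside 8.53% of all tested genes, as were Shmt2, Mthfd2, Aldh1l1 and Aldh1l2. In the same comparison 2 of 8 hepatocyte markers were lower. Higher were 2 of 6 cholangiocyte, 1 of 7 Kupffer cell and 1 of 6 endothelial markers, beside 8.06% of all tested genes, as was Shmt1. Proliferation markers (6, led by Rrm2 or Mki67) had means of 17.1, 64.8, 28.4 and 26.6 CPM, stellate cell markers (8, led by Dcn) 333, 614, 381 and 421 CPM, and neutrophil markers (6, led by S100a9 in most livers, with Ly6g at most at 0.172 CPM) 3.84, 28.1, 4.31 and 15.9 CPM. Of these, 6 of 6, 6 of 8 and 4 of 4 tested rose in Cre mice on MCD, beside 29.3% of all tested genes, and 2 of 6, 5 of 8 and 0 of 4 were lower in FLCN KO than in Cre mice on MCD, beside 8.53%. In the interaction, where Phgdh and Aldh1l2 passed with negative values, 6 of 7 monocyte and macrophage markers (median -1.87), 3 of 8 stellate markers (-1.55), 1 of 6 proliferation markers (-2.21) and 1 of 6 cholangiocyte markers (-0.50) passed with negative values, beside 5.54% of all tested genes. There 1 of 8 hepatocyte markers passed with a positive value, beside 3.29%. On chow, where Phgdh was higher in FLCN KO mice, 3 of 7 monocyte and macrophage markers (median 0.94), 2 of 6 cholangiocyte markers, 1 of 7 Kupffer cell markers and 1 of 6 endothelial markers were higher, beside 5.52% of all tested genes, and 1 of 8 hepatocyte markers was lower, beside 3.1%. Cholangiocyte markers (6, led by Spp1) had means of 64.3, 141, 125 and 120 CPM, endothelial markers (6, led by Stab2 or Clec4g) 185, 147, 226 and 174 CPM, Kupffer cell markers (7, led by Cd5l or Clec4f) 454, 440, 519 and 385 CPM and lymphocyte markers (7, led by Cd79b, Cd79a, Cd3g or Cd3e) 5.2, 5.75, 9.16 and 5.08 CPM. Skeletal muscle markers (8) had medians of 1.67, 15.7, 1.32 and 1.02 CPM. All 8 passed as higher on MCD in Cre mice, beside 29.3% of all tested genes. All 8 passed as lower in FLCN KO than in Cre mice on MCD, beside 8.53%. These calls rest on a few livers: Cre MCD 1, 3 and 4 held 15.7, 2485 and 121 CPM. Cre MCD 2 and 5 held 1.98 and 0.82 CPM, against 1.34 to 4.94 CPM in Cre chow libraries. FLCN KO MCD 3 held 55.0 CPM. Without Cre MCD 3, all 10 members passed for the diet in Cre mice, beside 58.4% of tested genes. For the genotype on MCD 5 passed, beside 16.8% of tested genes, with Psph (-0.59, adjusted p = 0.025) in place of Aldh1l1 (-0.34, adjusted p = 0.12).

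Across the 22 livers, members that fell on MCD correlated negatively with those that rose, which their split by diet in these same livers fixes in advance. These correlations carry no test, since all 22 livers share the 4 groups. Log2 CPM of Mthfd1 and Aldh1l1 had a Pearson r of 0.968, which was 0.905 after each group's mean was removed, and Shmt1 and Mthfd1 had 0.882 and 0.891. Psat1 and Mthfd1 had -0.974, and -0.58 with the means removed, and Psat1 and Mthfd1l had 0.929 and 0.376. Shmt2 and Mthfd1 were alike between groups (0.826) but not within them (-0.002 with the means removed). With the means removed, Shmt2 did not run against every member that rose. Its r was 0.25 with Psph, 0.456 with Mthfd2 and 0.399 with Aldh1l2. It was -0.163 with Phgdh, -0.137 with Psat1 and -0.266 with Mthfd1l. Over all 45 pairs the median r was -0.43, and 0 with the means removed. Among all tested genes with a mean of at least 1 CPM, the gene most like each member over the 22 livers was Ddr1 for Phgdh (r = 0.949), AI506816 for Psat1 (0.984), Ube2k for Psph (0.922), Habp2 for Shmt1 (0.961), Gstm6 for Shmt2 (0.943), Pecr for Mthfd1 (0.986), Vangl1 for Mthfd2 (0.929), Specc1 for Mthfd1l (0.958), Adra1b for Aldh1l1 (0.985) and Rbm24 for Aldh1l2 (0.951). The 2 next genes were Pygb and Abcc4 for Phgdh, Arhgdia and Wfdc3 for Psat1, Eif5a and Apex1 for Psph, Hal and Pigr for Shmt1, Tcea3 and Ogfrl1 for Shmt2, Gls2 and 1810046K07Rik for Mthfd1, Tbl2 and Tmem167 for Mthfd2, Abca5 and Tceal5 for Mthfd1l, Tmem63a and Gsta3 for Aldh1l1, and Slc7a11 and Srxn1 for Aldh1l2, with r from 0.895 to 0.985.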

How the data were processed

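Total RNA of frozen liver was made into mRNA libraries and sequenced as single-end reads. Per the labels and the study's methods, the authors trimmed reads with Trimmomatic, aligned them to GRCm38 with STAR and counted them per gene with HTSeq (versions, annotation and strand setting not given in the sources used here). They deposited raw counts per gene, whole numbers without normalization, for 22 libraries. Adapters carried molecular identifiers, but no collapsing step is stated, so the counts were treated as reads. Without a stated strand setting, reads of a member and of an overlapping gene cannot be told apart, as for Psph and Cct6a, Shmt2 and Ndufa4l2, Shmt1 and Smcr8, Psat1 and Gm3329, and Aldh1l2 and D10Wsu102e. The 50 pairs of libraries within groups had a Spearman correlation of counts of 0.909 to 0.926, and 0 were identical. Groups came from the sample titles. Each library has its own source name and was taken as 1 mouse. If some shared a mouse, p-values would in part measure technical spread.

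From these counts, genes with a mean of at least 10 were tested with edgeR 4.0.16 (R 4.3.3): TMM factors, 1 fit of 4 groups, two-sided quasi-likelihood tests, Benjamini-Hochberg adjustment over all 14062 tested genes, called under 0.05 with no fold limit. All adjusted p are from this fit unless stated. SE is the log2 fold change over the square root of F. CPM per kb used the exons of GENCODE M21 (GRCm38). Log2 CPM used a prior count of 2. Sex was read from Xist and Y-linked counts. Gcat and Ddit3 each had 2 rows of the same symbol, and the larger was used. In simulated data of 14062 genes, 200 were changed by 1 or 2 on the log2 scale, up or down. The fit recovered 84.5% (MCD in Cre and in FLCN KO mice), 81.5% (genotype on chow), 84.5% (genotype on MCD) and 69% (interaction). It recovered 45% for the difference between sexes on MCD. At a change of 1 the interaction had 49% and the sex difference 20%, and at 2 they had 89 and 70%. Far more genes passed for the diet in the real data, so these rates are not the power of the tests here.

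Named genes were all 10 members, Flcn, from each surrounding list up to 4 genes per comparison that passed with the largest change plus Ftcd, Gldc, Sds, Cbs, Gnmt, Tyms, Sfxn1, Slc25a32, Atf4, Asns and Trib3, and for each member the 3 genes most like it. Not every gene the rule allows is named, and some results are not reported here. The members and lists were chosen with earlier results of these data known. Alternatives were DESeq2 1.42.0, limma-voom (limma 3.58.1), RLE factors, other filters, only the 2 groups compared, a replicate block, sex as a covariate, and leaving out libraries. Fits of female or male mice alone, the fit by sex and scaling to total counts were added after the data were seen.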

Additional observations from a re-analysis of the deposited data

Results flagged for a closer look

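Among 44 sets of levels (10 members and Flcn in 4 groups), 2 held a library far from the others of its group by Dixon's test at the 95% level, or 4.55%, where chance flags about 5%. Mthfd2 was at 10.4 CPM in FLCN KO MCD 4, with the next liver at 4.82 CPM. Mthfd1 was at 166 CPM in Cre MCD 3, the library with muscle RNA, with the next liver at 135 CPM.

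The interaction of edgeR's test, the difference in the response to the MCD diet between genotypes, passed for Phgdh (-2.50, adjusted p = 0.036) and Aldh1l2 (-1.83, adjusted p = 0.035). Both entered the tests only through their MCD levels. Neither call held with no filter on low counts, with limma-voom or with the replicate block. Among the surrounding genes the interaction passed with a smaller value in FLCN KO mice for Pck2 (-2.26), Slc1a4 (-2.22), Nupr1 (-2.15), Atf3 (-1.98), Sfxn3 (-1.07) and Slc7a5 (-1.05). It had the opposite sign for Sds (1.29), Sdsl (0.97), Paics (0.81), Mthfsl (0.58), Sfxn1 (0.50) and Dld (0.45), with adjusted p from 0.0031 to 0.047 over these 12 genes. The genotype difference on MCD differed between sexes for Aldh1l2, by 2.25 on the log2 scale (adjusted p = 0.030).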

How the results depend on the processing

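The direction of each of the 10 members for the diet in Cre mice held in all 34 alternatives, except Psph, at -0.073 (adjusted p = 0.87) in male mice only. Of the 10 calls for the diet in Cre mice, 9 to 10 held on leaving out 1 library, where 54.2 to 58.4% of tested genes passed. In FLCN KO mice, where 7 members were called, 7 to 8 passed (39.9 to 46.8% of tested genes), the added one being Mthfd2. The genotype calls were less firm. On chow the 1 call became 0 with limma-voom, with only the 2 groups compared, without the 5 chow libraries of low unique mapping and in female or in male mice only, and 0 to 1 on leaving out 1 library. The shares of all tested genes called there were 7.25, 7.55, 3.51, 4.44 and 2.41%, and 4.76 to 10.2% on leaving out 1 library. On MCD, where 5 members were called, 3 were with only the 2 groups compared (14.5% of tested genes) and 0 in male mice only (4.89%). In female mice only 6 were (15% of tested genes), with Phgdh and Psph added and Aldh1l1 lost. On leaving out 1 library 3 to 5 were called (12.6 to 17.5% of tested genes). For the interaction, where Phgdh and Aldh1l2 were called, 0 members were with limma-voom (7.47% of tested genes), with no filter on low counts (2.65%) and in male mice only (0.441%). Without the 5 chow libraries 1 was (Mthfd2, with both others lost), beside 5.54% of tested genes. In female mice only 4 were (Shmt1 and Mthfd2 added), beside 8.62%. With DESeq2, sex as a covariate or scaling to total counts 3 were (Mthfd2 added), beside 12.1, 9.86 and 10%. On leaving out 1 library 0 to 4 were, beside 5.82 to 10.1%. In male mice only the fits hold fewer samples, and the causes of the other moves were not tested. The median r between members was -0.41 without the 5 chow libraries.

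Same-numbered mice were not alike on average: over 31 same-numbered pairs the deviations from group means had a mean correlation of 0.006. The range was -0.551 to 0.47, and 7 pairs were over 0.1. Pairs of different numbers were not compared, so whether some numbers share an origin was not tested. With the replicate number as a block, 3 members were called for the genotype on MCD (13.3% of tested genes) and 0 for the interaction (3.93%).

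Among surrounding genes, in male mice only Gatm had a diet change of 0.102 and Adssl1 one of 0.003 in Cre mice, against falls in all mice. Scaling to total counts without TMM moved the median of all genes from 0.01 to 0.43 for the diet in Cre mice, from 0 to 0.27 in FLCN KO mice, from -0.03 to 0.12 for the genotype on chow and from 0.03 to -0.13 for the interaction. The share of calls that were higher went from 50.9 to 81.9%, 50 to 77%, 64 to 92.1% and 37.3 to 12.5%, and Mtfmt (0.017), Dld (0.183), Dmgdh (0.389) and Prps1 (0.101) changed sign for the diet in Cre mice, while Shmt2 was at -0.105. Over all tested genes, calls moved by more than 1.5 times in male mice only (4684 and 2916 for the diet in Cre and FLCN KO mice, 339 and 687 for the genotype on chow and MCD, 62 for the interaction). For the genotype on chow they also moved to 494 without the 5 chow libraries, 624 in female mice only and 670 without FLCN KO chow 4, and for the interaction to 552 with the block, 779 without the 5 chow libraries, 819 without Cre MCD 1 and 820 without FLCN KO chow 4, against 1212 and 1242. Depth limits Phgdh most, with 0 to 47 reads per library.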
